A study of Mus musculus with 10 samples.

Results

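HSP90 is the cytosolic chaperone that finishes the folding of kinases, steroid receptors and other signalling proteins, and it works as a dimer that turns over ATP with the help of cochaperones. The 10 genes described here were listed by symbol: the HSP90 isoforms Hsp90aa1 and Hsp90ab1, the cochaperones Stip1, Ahsa1, Chordc1, Ptges3, Cdc37, Fkbp4 and Fkbp5, and Hsf1, the transcription factor that raises HSP90 and other chaperone genes under heat and protein stress. All 10 were found among the 57010 genes of the deposited table, and all 10 passed the filter on low counts that left 15539 genes to test. Their smallest value in any library was 247 counts (Fkbp5), so none entered through a single group.

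RNA was sequenced from retinas of 10 mice aged 6 to 8 weeks, collected on day 14 after intravitreal delivery. In 5 mice the injection was AAV2-GFP, a reporter for green fluorescent protein in the common AAV2 capsid, and in the other 5 it was AAV206-GFP, the same kind of reporter in the capsid under study, which the series title presents as a vector for the retinal pigment epithelium. Every mouse had received a vector and GFP, so each difference below lies between the vectors, and uninjected retinas were not analysed here. The labels name no strain, sex, promoter or dose.

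In resting cells HSF1 is held inactive in complexes with chaperones that include HSP90, and unfolded protein frees it to bind heat shock elements, inverted repeats of GAA, in the promoters of chaperone genes. HSP90 also keeps the glucocorticoid receptor able to bind hormone, and the immunophilins FKBP4 and FKBP5 compete for a place on that complex with opposite effects on the receptor. Fkbp5 is in turn a well-known transcriptional target of the glucocorticoid receptor. In photoreceptors a specialised relative of these cochaperones, AIPL1, works with HSP90 on the phosphodiesterase of the visual cascade.

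Because several of these genes are described as HSF1 targets, the letters of the heat shock element were searched in the RefSeq promoter windows (build GRCm38.p6, from 250 bases before to 50 bases after the annotated start). The 2-unit forms were GAANNTTC and TTCNNGAA, each its own reverse complement. The 3-unit forms were GAANNTTC followed by NNGAA and TTCNNGAA followed by NNTTC, reverse complements of each other, so both strands were covered and every 3-unit match holds 2-unit matches. The window table held 7 of the 10 genes, and Hsp90aa1, Hsp90ab1 and Hsf1 had no entry. A 3-unit match was present in 1 of the 7, Chordc1, against 0.603% of all 32851 windows. Any 2-unit match was present in 3 of the 7, against 15.1% of all windows. The windows of Ahsa1, Stip1, Ptges3 and Fkbp5 held no match of any form. Stretches of the Chordc1, Fkbp4 and Cdc37 windows are printed to show letters that matched, 5′ to 3′ on the gene's strand. A further 2-unit match in the Chordc1 window, TTCNNGAA at 34, lies outside the printed stretch. The Fkbp4 and Cdc37 windows held no 3-unit match. Capitals mark the 3-unit matches for Chordc1 and the 2-unit matches for Fkbp4 and Cdc37.
Chordc1 (chr9:18292260-18292289, plus strand): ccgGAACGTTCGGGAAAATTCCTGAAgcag
Fkbp4 (chr6:128438789-128438818, minus strand): ccgcttctctaGAAAGTTCtccgctcccgc
Cdc37 (chr9:21150086-21150115, minus strand): tcggcgggaacTTCCAGAAggcctcaccac
The Chordc1 stretch spans the RefSeq start, from -7 to 23, and 3 overlapping 3-unit matches, which begin at -4, 2 and 7, run through it. In the GENCODE M21 annotation Chordc1 begins further upstream, at 18292125, so the stretch lies inside that gene model. The Fkbp4 stretch lies from -162 to -133 and the Cdc37 stretch from -181 to -152. Such matches describe letters in a window and say nothing of whether a factor binds there. Among the 19 genes on a list of HSF1 targets, 16 had a window, 3 of these held a 3-unit match and 10 a 2-unit match. Of those 3, Hspd1 and Hspe1 have overlapping windows on opposite strands, and their matches are the same bases. Some listed genes had several windows and were counted if any matched, so these counts cannot be set directly against the shares of all windows.

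With AAV206-GFP, 7 of the 10 genes were lower (Hsp90aa1, Hsp90ab1, Stip1, Ahsa1, Chordc1, Ptges3 and Fkbp4), 1 was higher (Fkbp5), and Cdc37 and Hsf1 did not pass. The threshold was an adjusted p of 0.05 in edgeR's quasi-likelihood test over all tested genes, of which 5.30% were called lower, 5.95% higher and 11.2% in either direction. For the same 7 lower genes and for Fkbp5 the groups did not overlap at all. Over all tested genes 9.78% had no overlap, 4.36% with AAV206-GFP lower and 5.41% with it higher. The median log2 fold change was -0.36 over the 10 genes and -0.0095 over all tested genes. The 10 genes and the lists below were chosen with earlier results of these data known, so these comparisons are a description only. In bulk tissue, fewer cells of a type and less RNA per cell cannot be told apart. Levels are given as CPM, counts scaled to each library's TMM-adjusted size, and fold changes as log2 of AAV206-GFP over AAV2-GFP.

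**Figure D1:**
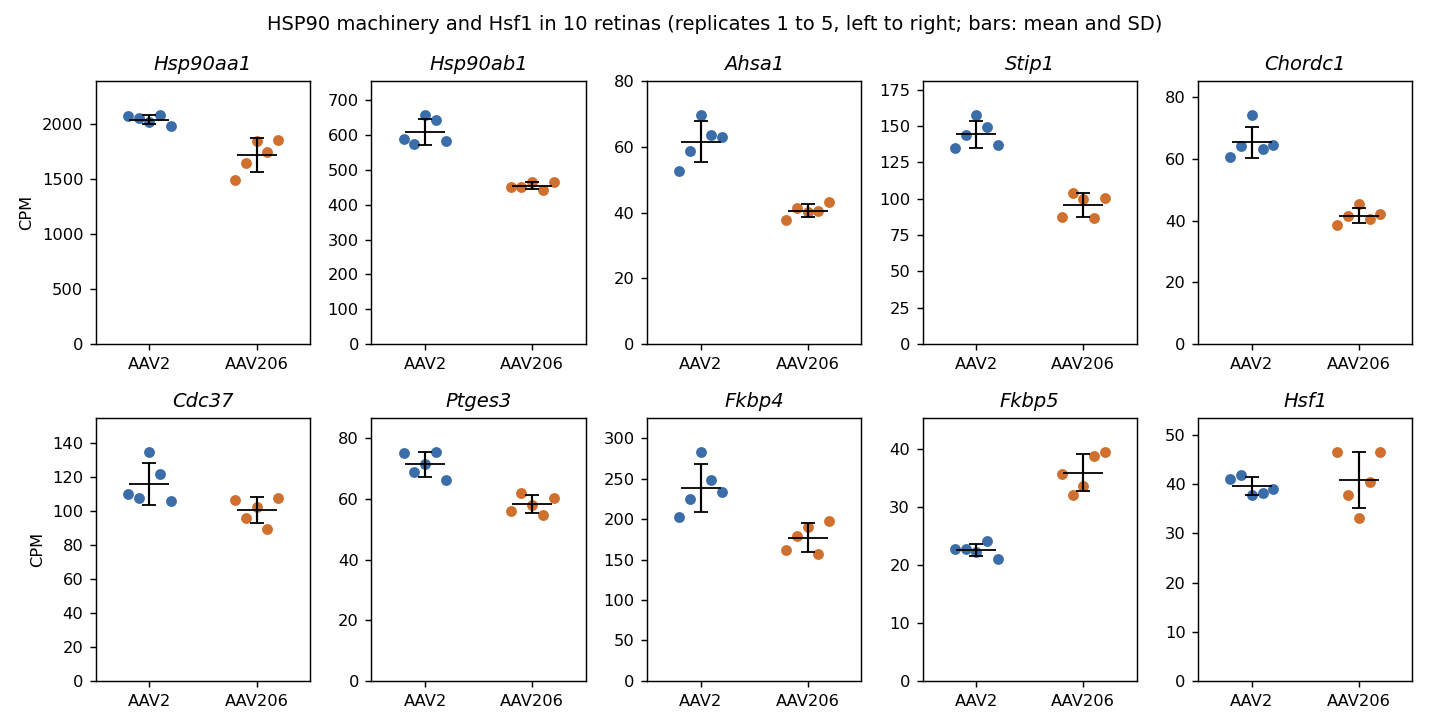
Level in CPM (vertical axes, from 0) of each of the 10 genes in the 5 AAV2-GFP (blue) and 5 AAV206-GFP (orange) retinas, points in the order of replicates 1 to 5, with bars for the mean and SD. The groups lie apart for 8 genes, Fkbp5 is the gene that is higher with AAV206-GFP, and Cdc37 and Hsf1 overlap.

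Hsp90aa1 (ENSMUSG00000021270, chromosome 12, 110690605 to 110702728 on GRCm38, minus strand) encodes the stress-inducible HSP90 isoform. In AAV2-GFP replicates 1 to 5 it measured 2072, 2049, 2012, 2075 and 1976 CPM. In AAV206-GFP replicates 1 to 5 it measured 1493, 1645, 1841, 1747 and 1853 CPM. The AAV2-GFP retinas were tightly grouped, and the highest AAV206-GFP retina lay below the lowest of them. The mean fell from 2037 ± 42.3 to 1716 ± 150.4 CPM (SD, n = 5) (log2 fold change -0.25, SE 0.06; edgeR adjusted p = 0.0159). This was the smallest change among the 7 lower genes. It missed the threshold without AAV206-GFP replicate 2 (edgeR adjusted p = 0.0525). Its counts carried decimals in all 10 libraries, a sign of reads divided with another sequence, so its level is uncertain.

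Hsp90ab1 (ENSMUSG00000023944, chromosome 17, 45567775 to 45573271, minus strand) encodes the constitutive isoform, and its counts were whole in every library. It measured 589.7, 574, 656, 643 and 584 CPM in AAV2-GFP replicates 1 to 5. With AAV206-GFP it measured 449.7, 449.6, 464, 442 and 464 CPM. All AAV206-GFP retinas lay well below all AAV2-GFP retinas, and the AAV206-GFP values were close to each other. The mean fell from 609 ± 37.3 to 454 ± 9.86 CPM (SD, n = 5) (log2 fold change -0.42, SE 0.06; edgeR adjusted p = 0.000175).

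The isoforms can be compared within each library, where the scaling between libraries plays no part. Not corrected for length, the Hsp90aa1 to Hsp90ab1 count ratio averaged 3.35 ± 0.207 in AAV2-GFP retinas and 3.78 ± 0.290 in AAV206-GFP retinas (SD, n = 5). By replicate it was 3.51, 3.57, 3.07, 3.23 and 3.38 with AAV2-GFP, and 3.32, 3.66, 3.97, 3.95 and 3.99 with AAV206-GFP. AAV206-GFP replicate 1 fell within the AAV2-GFP range and the other 4 lay above it. The difference in log2 ratio was 0.17 (exact permutation test over all relabellings, two-sided, p = 0.0397, adjusted over 2 ratios 0.0397). It missed the threshold when any of AAV2-GFP replicates 3, 4 or 5 or AAV206-GFP replicates 2, 3, 4 or 5 was left out, with adjusted exact p-values from 0.0556 to 0.0794, and it carries the uncertainty of the Hsp90aa1 counts.

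Among the cochaperones that drive the HSP90 cycle, Stip1, Ahsa1 and Chordc1 had larger estimated decreases than either HSP90 gene, a difference between genes that was not tested. Stip1 (ENSMUSG00000024966, chromosome 19, 7020702 to 7039967, minus strand) encodes HOP, the adaptor that passes clients from HSP70 to HSP90. It stood at 135, 144, 157, 149 and 137 CPM in AAV2-GFP replicates 1 to 5. The AAV206-GFP retinas had 87.7, 104, 99.9, 86.5 and 100.4 CPM. The gap between the groups was wider than the spread within either. The difference was -0.59 on the log2 scale (SE 0.07; edgeR adjusted p = 6.4e-05), a level that fell by 33.7%.

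Ahsa1 (ENSMUSG00000021037, chromosome 12, 87266479 to 87273998, plus strand) encodes AHA1, the activator of the HSP90 ATPase. In AAV2-GFP replicates 1 to 5 it stood at 52.7, 58.8, 69.6, 63.7 and 63.0 CPM. With AAV206-GFP it stood at 37.8, 41.5, 40.2, 40.5 and 43.3 CPM. AAV2-GFP replicate 1 was the lowest of its group and still lay above all AAV206-GFP retinas. The difference was -0.60 on the log2 scale (SE 0.08; edgeR adjusted p = 0.000137). Its counts carried decimals in 8 libraries, and a miRNA gene, Gm47293, overlaps its exons on the same strand, so its level is uncertain.

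Chordc1 (ENSMUSG00000001774, chromosome 9, 18292125 to 18317442, plus strand) encodes CHP1, an HSP90-binding protein with zinc-binding CHORD domains. It measured 60.8, 64.1, 74.2, 63.4 and 64.6 CPM in AAV2-GFP replicates 1 to 5. Under AAV206-GFP the levels were 38.8, 41.4, 45.5, 40.5 and 42.1 CPM. Replicate 3 was the highest retina of either group. The log2 fold change of -0.65 (SE 0.07; edgeR adjusted p = 3.4e-05) was the largest decrease among the 10 genes, a level that fell by 36.3% with a 95% interval from -42.5% to -29.4%.

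Ptges3 (ENSMUSG00000071072, chromosome 10, 128058954 to 128077272, plus strand) encodes p23, which steadies the closed, ATP-bound form of HSP90. Its levels were 75.3, 68.8, 71.5, 75.5 and 66.1 CPM in AAV2-GFP replicates 1 to 5. With AAV206-GFP they were 56.2, 62.1, 58.0, 54.7 and 60.5 CPM. The groups did not overlap, but AAV206-GFP replicate 2 and AAV2-GFP replicate 5 lay close together. The difference was -0.29 on the log2 scale (SE 0.06; edgeR adjusted p = 0.00727).

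Cdc37 (ENSMUSG00000019471, chromosome 9, 21133222 to 21149982, minus strand) encodes the adaptor that brings protein kinases to HSP90. It measured 110.0, 108, 135, 122 and 106 CPM in AAV2-GFP replicates 1 to 5. With AAV206-GFP it measured 107, 96.3, 103, 89.6 and 108 CPM. The groups overlapped, and AAV2-GFP replicates 3 and 4 stood above all other retinas. The log2 fold change of -0.21 (SE 0.08) did not pass (edgeR adjusted p = 0.0925). Its 95% interval, from -0.37 to -0.04 without correction for the number of genes, includes the estimates for Hsp90aa1 and Ptges3.

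The steroid receptor immunophilins went in opposite directions. Fkbp4 (ENSMUSG00000030357, chromosome 6, 128429735 to 128438677, minus strand) encodes FKBP52, which favours hormone binding and transport of the glucocorticoid receptor. It measured 203, 225, 283, 249 and 233 CPM in AAV2-GFP replicates 1 to 5. With AAV206-GFP it measured 161, 179, 189.7, 156 and 197 CPM. Fkbp4 had the widest spread among the AAV2-GFP retinas, 12.4% of the mean, yet the lowest of them lay above all AAV206-GFP retinas. The difference was -0.43 on the log2 scale (SE 0.09; edgeR adjusted p = 0.00526).

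Fkbp5 (ENSMUSG00000024222, chromosome 17, 28399094 to 28517527, minus strand) encodes FKBP51, which lowers the receptor's affinity for hormone. It measured 22.8, 22.7, 22.3, 24.1 and 21.1 CPM in AAV2-GFP replicates 1 to 5. With AAV206-GFP it measured 35.8, 32.1, 33.6, 38.8 and 39.5 CPM. All AAV206-GFP retinas lay well above the AAV2-GFP retinas, which differed little from each other. The mean rose from 22.6 ± 1.08 to 36.0 ± 3.21 CPM (SD, n = 5) (log2 fold change 0.67, SE 0.08; edgeR adjusted p = 7.8e-05), or 59.1% more RNA with a 95% interval from 41.4% to 79.1%. The gene model spans several annotated RNAs, among them the antisense gene AC154912.1, and none overlaps its exons.

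Within a library the Fkbp5 to Fkbp4 count ratio averaged 0.0958 ± 0.0124 in AAV2-GFP retinas and 0.205 ± 0.0301 in AAV206-GFP retinas (SD, n = 5). By replicate it was 0.112, 0.101, 0.0787, 0.0970 and 0.0904 with AAV2-GFP, and 0.222, 0.179, 0.177, 0.248 and 0.200 with AAV206-GFP. The lowest AAV206-GFP ratio was above the highest AAV2-GFP ratio. The difference in log2 ratio was 1.10 (exact permutation test, two-sided, p = 0.00794, the smallest value the relabellings can give, adjusted over 2 ratios 0.0159). It stayed between 1.03 and 1.16 when each library was left out in turn.

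**Figure D2:**
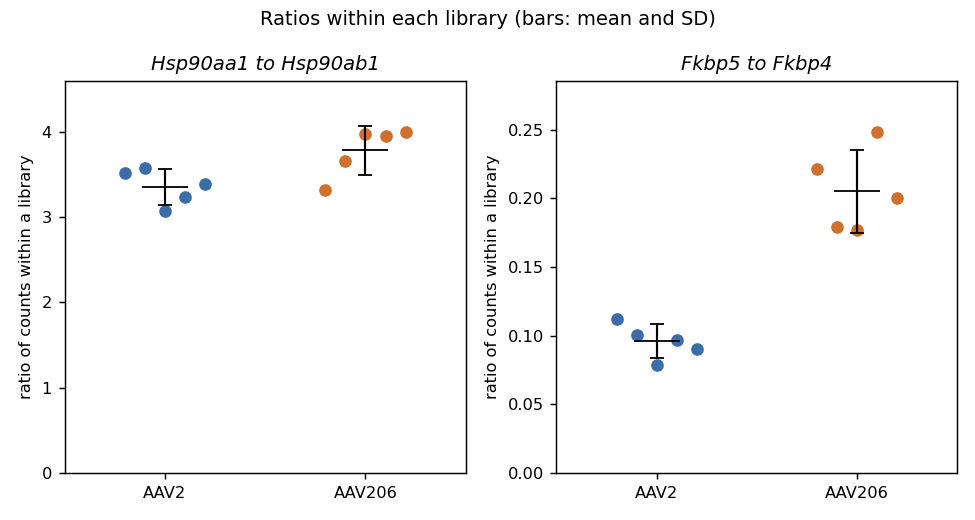
Ratio of counts within each library (vertical axes, from 0), Hsp90aa1 to Hsp90ab1 on the left and Fkbp5 to Fkbp4 on the right, for 5 AAV2-GFP (blue) and 5 AAV206-GFP (orange) retinas with mean and SD. The Fkbp5 to Fkbp4 ratio lies between 0.0787 and 0.112 with AAV2-GFP and between 0.177 and 0.248 with AAV206-GFP, while the isoform ratios of the groups overlap.

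Hsf1 (ENSMUSG00000022556, chromosome 15, 76477422 to 76501913, plus strand) measured 41.0, 41.9, 37.8, 38.2 and 39.0 CPM in AAV2-GFP replicates 1 to 5. With AAV206-GFP it measured 46.5, 37.9, 33.0, 40.4 and 46.5 CPM. The AAV206-GFP retinas lay both above and below the AAV2-GFP retinas and were more spread out. The difference was 0.05 on the log2 scale (SE 0.09; edgeR adjusted p = 0.771), and its 95% interval from -0.14 to 0.24 runs from 9.49% less to 17.8% more Hsf1 RNA. The sign turned without AAV206-GFP replicate 1 (-0.0050) or replicate 5 (-0.0028). These are RNA levels, and HSF1 is controlled largely as a protein.

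Levels of different genes were set side by side only after division by the length of the annotated principal transcript, as CPM per kilobase. With AAV2-GFP the order was Hsp90aa1 at 621 ± 12.9, Hsp90ab1 at 242 ± 14.8, Fkbp4 at 108 ± 13.4, Stip1 at 68.5 ± 4.35, Ahsa1 at 44.7 ± 4.55 and Ptges3 at 35.7 ± 2.04 CPM per kilobase (SD, n = 5). Hsf1 at 19.0 ± 0.854, Cdc37 at 14.8 ± 1.56, Chordc1 at 11.3 ± 0.883 and Fkbp5 at 5.86 ± 0.281 CPM per kilobase followed. With AAV206-GFP the first 8 places were the same, while Fkbp5 at 9.32 ± 0.832 stood above Chordc1 at 7.20 ± 0.430 CPM per kilobase. Ahsa1 at 29.5 ± 1.47 and Ptges3 at 29.2 ± 1.51 CPM per kilobase did not differ beyond their spread in that group. The order of the lower genes depends on the length used: per kilobase of all annotated exons, with AAV2-GFP, Ahsa1 moved from place 5 to 7, Hsf1 from 7 to 9 and Cdc37 from 8 to 6, and Fkbp5 stayed below Chordc1 in both groups.

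Within the groups the genes varied together only in part. After each group's mean was subtracted, Pearson correlations of log2(CPM + 1) over the 10 libraries had a median of 0.33 over the 45 gene pairs and ranged from -0.59 (Chordc1 with Hsf1) to 0.87 (Stip1 with Fkbp4). The points share library, depth and scaling. AAV2-GFP replicate 3 was the highest of its group for 6 of the 10 genes (Hsp90ab1, Ahsa1, Stip1, Chordc1, Cdc37 and Fkbp4), and AAV206-GFP replicate 5 was the highest of its group for 5. AAV2-GFP replicate 1 was the lowest of its group for Ahsa1, Stip1, Chordc1 and Fkbp4. AAV206-GFP replicate 4 was the lowest for Hsp90ab1, Stip1, Cdc37, Ptges3 and Fkbp4.

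The genes whose deviations followed those of Hsp90aa1 most closely, among 14957 compared over 10 libraries, were Cnga1 (r = 0.98), Hsph1 (0.96), Zfp369 (0.95), Nfya (0.95) and Ctnnb1 (0.95). Of these Hsph1 alone passed the test between the vectors, and Cnga1 had a log2 fold change of 0.12 (edgeR adjusted p = 0.185). Fkbp5 was followed most closely by Ptpn1 (r = 0.93), Nol6 (0.92), Ndufaf2 (0.92), 1110038B12Rik (0.91) and Fhdc1 (0.90). Nol6 was higher with AAV206-GFP by 0.25 (edgeR adjusted p = 0.0292) and Ndufaf2 lower, with a log2 fold change of -0.60 (edgeR adjusted p = 0.0126). With so many genes and so few libraries, coefficients of this size are a description only.

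**Figure D3:**
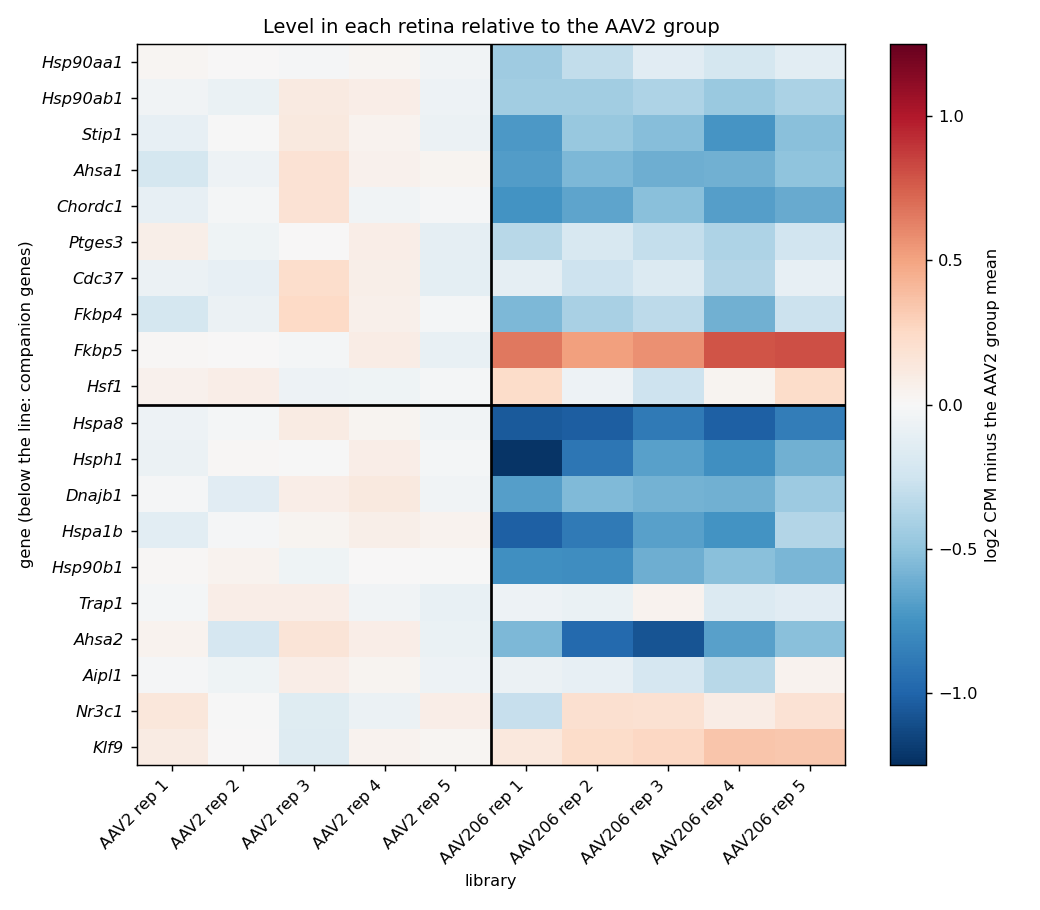
Colour shows log2 CPM minus the mean log2 CPM of the AAV2-GFP group, for the 10 genes (above the line) and 10 companion genes (below), in each of the 10 libraries (columns). Hsp90aa1, Hsp90ab1, Stip1, Ahsa1, Chordc1, Ptges3 and Fkbp4 are blue in all 5 AAV206-GFP libraries, Fkbp5 is red in all 5, and Hsf1 varies in sign. Cdc37, which did not pass, also lies below the AAV2-GFP mean in all 5.

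Beyond the 10 genes, HSF1's other familiar targets were examined as a list of 19, all of them tested. The list was chosen with earlier results of these data known, so its count is a description only. With AAV206-GFP 10 of the 19 were called lower and the other 9 did not pass, against 5.30% called lower over all tested genes, and the median log2 fold change was -0.31. Without AAV2-GFP replicates 1 and 4 the number was 7. Hspa8, the constitutive HSP70 that hands clients to HSP90, fell from 1418 ± 67.1 to 725 ± 45.2 CPM (SD, n = 5) (log2 fold change -0.97, SE 0.06; edgeR adjusted p = 7.5e-08). Hsph1, its nucleotide exchange factor HSP110, fell by 0.82 on the log2 scale (edgeR adjusted p = 5.0e-05). Dnajb1, the HSP40 that also restrains HSF1, fell by 0.58 (edgeR adjusted p = 6.7e-05), and the inducible HSP70 gene Hspa1b by 0.72 (edgeR adjusted p = 0.000211). Hspa8 and Hspa1b carried decimals in all 10 libraries, and Hspa1b shares most of its sequence with Hspa1a, so their levels are uncertain.

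Among the HSF family, Hsf2 had a log2 fold change of -0.20 that did not pass (edgeR adjusted p = 0.0580). Hsbp1, a small protein that binds HSF1, was lower, with a log2 fold change of -0.28 (edgeR adjusted p = 0.0192), and missed the threshold without AAV206-GFP replicate 2 or 4. It was the 1 called gene of the 4 tested on a list of 5, against 11.2% called over all tested genes. Of the 4, 3 had a negative log2 fold change and 1 a positive one. The positive one was the low-expressed Hsf2bp, named here after its value was seen, at 1.14 (edgeR adjusted p = 0.0513, not passed). In some alternatives, such as upper-quartile scaling and the DESeq2 Wald test, 1 gene of the list was called higher. Hsf2 was called in 3 of 21 alternatives. These were scaling by library size only (edgeR adjusted p = 0.0485), the DESeq2 Wald test (adjusted p = 0.0426) and the fit without AAV206-GFP replicate 5. Both HSP90 relatives outside the cytosol were tested. Hsp90b1, which encodes GRP94 of the endoplasmic reticulum, fell from 383 ± 10.3 to 244 ± 19.2 CPM (SD, n = 5; log2 fold change -0.65, edgeR adjusted p = 1.3e-05), with decimals in all 10 libraries. Trap1, the mitochondrial HSP90, stood at 48.4 ± 2.68 and 45.7 ± 2.7 CPM (SD, n = 5; edgeR adjusted p = 0.429), with a 95% interval of -0.22 to 0.06 for its log2 fold change.

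A list of 29 further HSP90 cochaperones gave 27 tested genes, of which 4 were called lower and 3 higher, with a median log2 fold change of -0.06. These are 14.8% and 11.1% of the tested genes on the list, against 5.30% and 5.95% over all tested genes. Both counts fell when any of several libraries was left out. The lower calls were 1 without AAV2-GFP replicate 4 or 5 or AAV206-GFP replicate 1, 2 or 4, and 2 without AAV2-GFP replicate 2 or 3 or AAV206-GFP replicate 3. The higher calls were 1 without AAV2-GFP replicate 2 or 4 or AAV206-GFP replicate 2, 3 or 4. Ahsa2, the second AHA1-type gene, fell from 54.9 ± 5.36 to 32.6 ± 5.41 CPM (SD, n = 5; log2 fold change -0.75, edgeR adjusted p = 0.000328), with decimals in all 10 libraries. Ruvbl2, an ATPase of the R2TP complex, was lower by a log2 fold change of -0.30 (edgeR adjusted p = 0.0304). The Ruvbl2 groups overlapped, and its counts carried decimals in all 10 libraries. Tsc1, an HSP90 cochaperone better known as a brake on mTORC1, was higher by 0.35 (edgeR adjusted p = 0.00993), and Sugt1, which works with CHORD proteins, by 0.22 (edgeR adjusted p = 0.0314). Ruvbl2 and Sugt1 each lost the call in 8 of 21 alternatives. Aipl1, the photoreceptor cochaperone, measured 783, 764, 839, 812 and 758 CPM with AAV2-GFP and 751, 738, 682, 621 and 813 CPM with AAV206-GFP, and its log2 fold change of -0.13 did not pass (edgeR adjusted p = 0.210).

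HSP90 clients were examined as a list of 24, all tested, which also held the photoreceptor phosphodiesterase subunits Pde6a, Pde6b, Pde6c, Pde6g and Pde6h. Of these, 1 was called lower and 1 higher, or 4.17% each way, below the 5.30% and 5.95% over all tested genes, and the median log2 fold change was 0.07. The higher calls were 2 without AAV2-GFP replicate 2 or AAV206-GFP replicate 5. The lower gene was Pde6g, the inhibitory subunit of the rod phosphodiesterase (log2 fold change -0.28, edgeR adjusted p = 0.0244), with overlapping groups. Whether this subunit is itself an HSP90 client was not examined. Pde6g lost its call without AAV2-GFP replicate 4 or AAV206-GFP replicate 2, 3 or 4 (edgeR adjusted p = 0.0535 to 0.0671), which left no gene of the list called lower. Pde6a, Pde6b, Pde6c and Pde6h did not pass (edgeR adjusted p = 0.166, 0.539, 0.447 and 0.321). Egfr, a receptor tyrosine kinase, was higher with a log2 fold change of 0.45 (edgeR adjusted p = 0.0198). The glucocorticoid receptor gene Nr3c1 measured 97.4 ± 7.86 and 103 ± 13.5 CPM (SD, n = 5), with a log2 fold change of 0.08 that did not pass (edgeR adjusted p = 0.574, 95% interval -0.10 to 0.27).

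Since Fkbp5 is a glucocorticoid receptor target, 16 other genes described as such targets were listed, and 15 were tested. This list too was chosen with earlier results of these data known, so its count is a description only. With AAV206-GFP 5 of the 15 were called higher and the other 10 did not pass, against 5.95% called higher over all tested genes, and the median log2 fold change was 0.26. Sult1a1, a sulfotransferase, rose from 2.21 ± 0.589 to 5.76 ± 0.618 CPM (SD, n = 5; log2 fold change 1.38, edgeR adjusted p = 0.000719). Mt2, a metallothionein, rose by 0.89 on the log2 scale (edgeR adjusted p = 0.00123), and Klf9, a hormone-induced zinc finger factor, by 0.26 (edgeR adjusted p = 0.0174). The low-expressed Angptl4 rose by 1.41 (edgeR adjusted p = 0.0248), and its call was lost in 5 of 20 alternatives. The fifth, Zbtb16, is named here after its value was seen, with a log2 fold change of 0.92 (edgeR adjusted p = 0.0301) and overlapping groups. Other standard targets did not pass. Tsc22d3, which encodes the glucocorticoid-induced leucine zipper protein, measured 29.1 ± 3.84 and 28.5 ± 2.71 CPM (SD, n = 5; edgeR adjusted p = 0.857), and the sign of its log2 fold change turned without AAV2-GFP replicate 3 or 4. Without AAV2-GFP replicate 3 or AAV206-GFP replicate 5 the number called higher was 3.

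**Figure D4:**
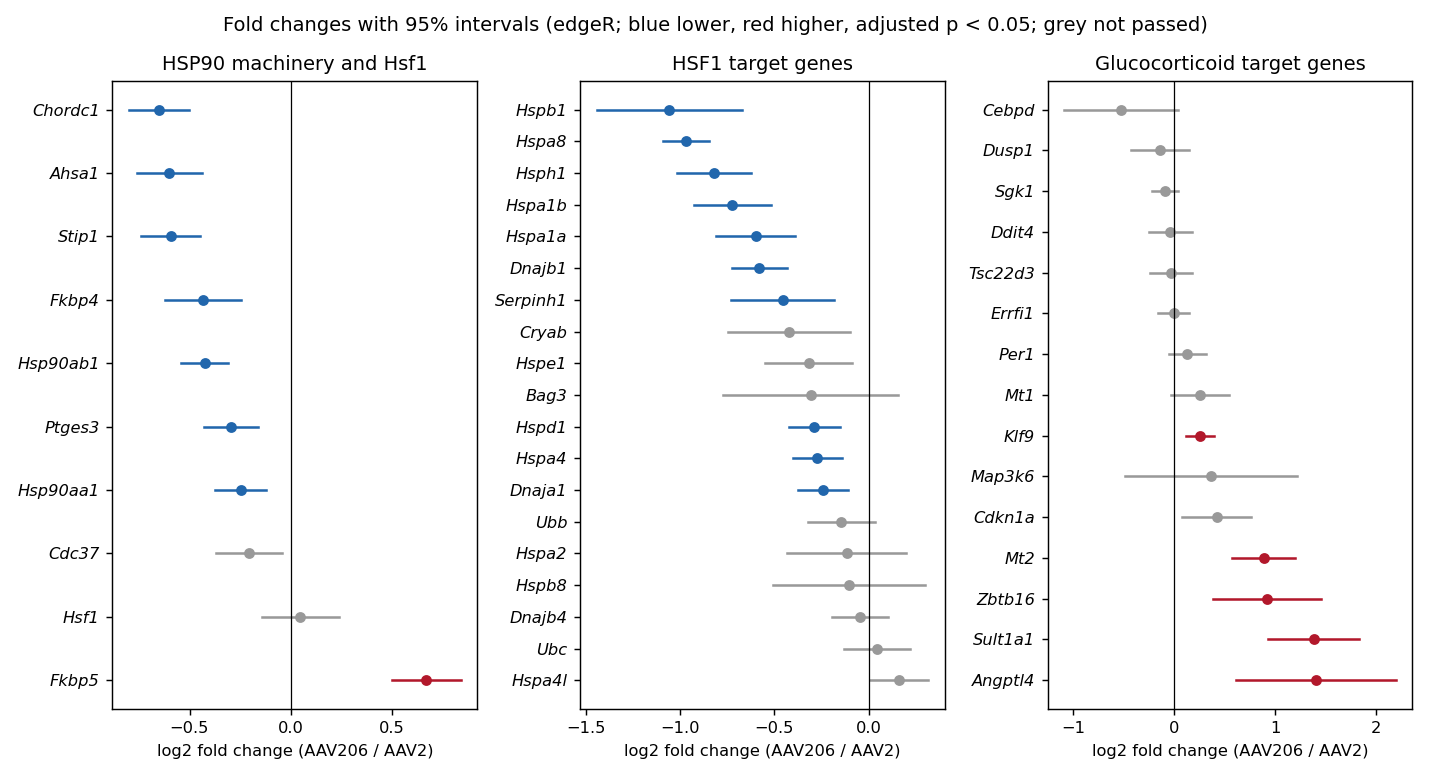
Log2 fold change of AAV206-GFP over AAV2-GFP (horizontal axes) with its 95% interval, for the 10 genes, the 19 HSF1 targets and the 15 tested glucocorticoid targets. Blue genes were called lower and red genes higher at an edgeR adjusted p under 0.05, and grey genes did not pass. The called HSF1 targets lie left of 0 and the called glucocorticoid targets right of it.

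Total counts lay between 10989843 and 12752604 per library, and the markers of rods, cones, bipolar, amacrine, horizontal, ganglion and Müller cells named for the retina were detected in every library. Some marker sums moved with the vectors, and their part in the results above was not tested. The summed level of 5 erythrocyte markers was 67.8 to 85.8 CPM with AAV2-GFP and 100.6 to 319 CPM with AAV206-GFP, with 4 called higher. For 6 lens markers it was 10.5 to 32.3 and 0.456 to 11.5 CPM, with 2 called lower and Crybb2, Cryba1, Crygs, Bfsp1 and Mip at 0 in some libraries. For 6 rod markers it was 50872 to 54334 and 54493 to 60107 CPM (1 called higher), for 5 cone markers 734 to 797 and 814 to 862 CPM (2 called higher), and for 4 endothelial markers 121 to 144 and 154 to 173 CPM (1 lower and 1 higher). The sum of 8 interferon-response genes was 424 and 568 CPM in AAV2-GFP replicates 1 and 4, 79.3 to 142 CPM in the other AAV2-GFP libraries and 84.1 to 104 CPM with AAV206-GFP, and 4 of the 6 tested were called lower. Among bipolar, ganglion and retinal pigment epithelium markers 1 of 5 tested in each list was called lower. AAV2-GFP replicate 1 also stood apart in 6 microglia and macrophage markers (131 against 14.3 to 21.2 CPM in the other AAV2-GFP libraries). Without replicates 1 and 4 the lower calls among the 10 genes went from 7 to 5, with Hsp90aa1 at -0.24 (edgeR adjusted p = 0.0815) and Ptges3 at -0.25 (edgeR adjusted p = 0.0726), while Fkbp5 remained called higher.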

How the data were processed

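The authors deposited a table of estimated counts per gene for the 10 libraries, not scaled between libraries, with decimals in 5.95% of values. Per the submitters' processing notes, STAR 2.7.10b, RSEM 1.3.1 and the build mm10 were used, and the annotation is not given in the sources used here. Per the labels' protocols, RNA was extracted with Trizol and libraries were made with an NEBNext Ultra kit and sequenced as read pairs of 150 bases. Gene names, lengths and coordinates came from GENCODE M21 (GRCm38), which named 52029 of the 57010 rows, and promoter windows from RefSeq. Rows without a name held 0.531% of the counts.

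Libraries were grouped by title, and none was left out. Counts were rounded to whole numbers and fitted with edgeR 4.0.16 in R 4.3.3: filterByExpr with a minimum count of 10, TMM scaling, quasi-likelihood F test without covariates, Benjamini-Hochberg adjustment over 15539 genes. Standard errors are the absolute log2 fold change over the square root of F. Ratios used an exact permutation test. In simulated counts for this comparison (15357 genes passing the filter, 200 simulated as changed), the fit recovered 77.8% of those made 2-fold and 60.6% of those made 1.5-fold. Of its calls there, 6.80% were genes simulated as unchanged, above the 5% that the threshold of 0.05 aims at. At these depths 3 counts equal 0.232 to 0.274 CPM, a conversion of units and not an error of the levels. The labels describe 5 mice per group.

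The genes and lists were chosen with earlier results of these data known. Named genes are the 10 members, the called genes of each list (at most 4 by smallest p), Hsp90b1, Trap1, Aipl1, Nr3c1, Hspa8, Hsph1, Dnajb1, Tsc22d3 and Hsf2, and the 5 closest followers of Hsp90aa1 and Fkbp5. Alternatives used other scalings, filters and tests (limma-voom from limma 3.58.1 and the Wald test of DESeq2 1.42.0), unrounded counts, the replicate number as a block, and left out libraries.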

Additional observations from a re-analysis of the deposited data

Results flagged for a closer look

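In 66 group results (31 genes and 2 ratios, each in both groups) the library farthest from the other 4 of its group was examined, with its gap to the nearest of them divided by the range of the group. The gap exceeded the critical ratio of 0.71 in 4, against 3.3 that a 1 in 20 chance would give. Chordc1 was high in AAV2-GFP replicate 3, at 74.2 CPM against 60.8 to 64.6 CPM (ratio 0.714), and its log2 fold change stayed between -0.71 and -0.60 under all 21 alternatives. Egfr was high in AAV206-GFP replicate 4, at 27.1 CPM against 19.2 to 20.6 CPM (ratio 0.816). Nr3c1 was low in AAV206-GFP replicate 1, at 79.7 CPM against 104 to 112 CPM (ratio 0.742). Tsc22d3 was high in AAV206-GFP replicate 3, at 33.2 CPM against 26.7 to 28.3 CPM (ratio 0.761).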

How the results depend on the processing

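Under all 21 alternatives Hsp90ab1, Stip1, Ahsa1, Chordc1, Fkbp4 and Fkbp5 kept their direction and their call. Hsp90aa1 lost its call in 2 and Ptges3 in 1, and Cdc37 stayed uncalled, with edgeR, DESeq2 or limma adjusted p-values from 0.0616 to 0.217. When each library was left out in turn, 6 to 7 of the 10 genes were called lower, 991 to 1912 genes over the whole table (991 without AAV2-GFP replicate 4, 1074 without AAV206-GFP replicate 2, 1056 without AAV206-GFP replicate 4), 8 to 10 HSF1 targets lower, 3 to 5 glucocorticoid targets higher, and 1 to 4 of the further cochaperones lower and 1 to 3 higher. In those fits Hsf1 ranged from -0.0050 to 0.11 and Tsc22d3 from -0.095 to 0.027, and the log2 ratio difference of Hsp90aa1 to Hsp90ab1 from 0.14 to 0.22. Without AAV2-GFP replicates 1 and 4, 985 genes passed, with 2 further cochaperones lower and 0 higher in edgeR (4 higher at an unadjusted p under 0.05), and the isoform ratio difference was 0.18 (adjusted exact p = 0.0714); fewer samples were fitted there. No pairing by replicate number was seen: same-numbered libraries had correlations of -0.14 to 0.12 in their deviations, and no AAV2-GFP library was matched best by its own number. Such correlations cannot show whether same-numbered libraries were handled together. With the replicate block 1085 genes passed, 1 further cochaperone lower and 1 higher and 3 glucocorticoid targets higher, and the ratio differences of 0.17 and 1.10 had adjusted exact p-values of 0.188 and 0.125 over 5 pairs, a test too small to pass. Other causes were not tested.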
